A study of Mus musculus with 4 samples.

Results

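Dner and 9 core genes of the Notch pathway were followed in chondrocytes of the growth plate's proliferative zone, where cells divide in columns, with and without Ift88, a gene needed to build the primary cilium. The members were the probe sets whose array annotation names Dner, Notch1, Notch2, Notch3, Jag1, Jag2, Dll1, Hes1, Hey1 or Rbpj and no other gene. There were 19 such probe sets of 45037 on the array, for 10 genes of 18193. The 9 other genes were taken as parts of the pathway, and Dner was selected on its low values in the Ift88-deleted arrays. Its difference between the groups is therefore a description and was not tested.

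The arrays came from 2 biological replicates of Ift88-deleted mice (Col2aCre;Ift88fl/fl) and 2 of control mice labelled wild-type, all on the C57BL/6 background and at postnatal day 7. Col2a-driven Cre removes the floxed gene in cells that express type II collagen, so cells of the dissected tissue that never expressed it keep the gene. A needle was used to free the zone from 40 µm sections of tibia and femur, and 50 ng of total RNA per sample was amplified over 2 cycles and hybridised to Affymetrix mouse arrays. The sources used here do not say whether a sample pooled animals, nor which Cre or floxed alleles the control mice carried. Values are log2 after RMA, with each probe set centred on its own median over all 4 arrays, and so compare arrays without giving a level.

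Notch receptors are cut on contact with a ligand on a neighbouring cell, and the freed intracellular part joins the DNA-binding protein Rbpj in the nucleus to switch on genes such as Hes1 and Hey1. In cartilage, Notch signalling through Rbpj is known to act on the passage of chondrocytes to hypertrophy. Dner (delta and Notch-like EGF repeat-containing) is a transmembrane protein with EGF-like repeats that lacks the DSL domain of the canonical ligands, and is best known from neurons of the brain.

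The promoters of Dner, the member with the largest difference, and of Rbpj, the DNA-binding protein on which the pathway converges, are shown as the 250 bases before a RefSeq transcription start (GRCm38.p6). Capitals mark the N-box CACNAG, to which Hes1 is known to bind, in the Dner window (chr1:84696222-84696471, minus strand), and the Rbpj core motif TGGGAA in the Rbpj window (chr5:53590096-53590345, plus strand), on either strand in both cases.
Dner: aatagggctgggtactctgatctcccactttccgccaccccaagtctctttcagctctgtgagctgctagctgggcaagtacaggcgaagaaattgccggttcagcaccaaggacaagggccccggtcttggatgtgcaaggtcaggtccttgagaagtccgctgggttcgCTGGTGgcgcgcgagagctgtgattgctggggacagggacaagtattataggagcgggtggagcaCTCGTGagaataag
Rbpj: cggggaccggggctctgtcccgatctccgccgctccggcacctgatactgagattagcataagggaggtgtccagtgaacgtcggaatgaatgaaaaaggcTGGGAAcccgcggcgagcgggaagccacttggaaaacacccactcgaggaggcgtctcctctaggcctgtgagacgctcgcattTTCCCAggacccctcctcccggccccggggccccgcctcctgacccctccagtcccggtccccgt
The Dner window holds 2 N-box matches, which begin at positions -79 and -14 from the start site, and the Rbpj window holds 2 matches to TGGGAA, at -149 and -65. The letters TGGGAA are not in the Dner window, nor CACNAG in the Rbpj window. No match of one motif overlapped a match of the other. Of 32851 RefSeq windows of this length 36.7% hold CACNAG and 21.6% hold TGGGAA, so such matches are common. The promoter table matched 8 of the 10 members with 10 windows, and did not match Hes1 and Hey1. N-box matches were also found in the windows of Notch1 (1), Notch2 (1) and Notch3 (2), and TGGGAA in no member's window other than those of Rbpj. The Rbpj window shown lies inside the span of the gene (chromosome 5, 53555779 to 53657445), so its start site is not the first. Another Rbpj window (53590236 to 53590485) overlaps it. The match there, at -205, is the same site as the one at -65.

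Over all probe sets, limma called 20 of 45037 at an adjusted p under 0.05, 10 higher and 10 lower in Ift88-deleted samples. The SD of the values over all probe sets was 0.173 and 0.223 for Ift88-deleted 1 and 2, while it was 0.289 for control 1, the widest, and 0.213 for control 2. The 3 probe sets of Xist, an RNA expressed from the inactive X of female cells, were lower in the Ift88-deleted arrays, by log2 differences of -6.46, -7.72 and -7.91, and the Y-linked genes Uty, Kdm5d and Eif2s3y were higher. Sex by these genes therefore divides the arrays as genotype does, and neither can be told apart from the other in any difference given here. The probe set of Ift88 itself differed by 0.08 (SE 0.166, limma adjusted p = 1), and where its probes lie was not analysed here, so it does not check the deletion. In bulk RNA, fewer cells of a type and less RNA per cell cannot be told apart.

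Dner (chromosome 1, 84369839 to 84696221) was low in both Ift88-deleted arrays on both of its probe sets, and the controls were high by unequal amounts. Probe set 1423671_at was at -1.16 and -0.66 in the Ift88-deleted arrays, against 2.27 in control 1 and 0.66 in control 2. The mean was -0.91 ± 0.36 in Ift88-deleted samples and 1.46 ± 1.14 in control samples (SD, n = 2 each), a log2 difference of -2.37 or a 5.18-fold lower value. Probe set 1456379_x_at was at -1.10 and -1.34 in the Ift88-deleted arrays, against 3.30 in control 1 and 1.10 in control 2, a log2 difference of -3.41 or a 10.7-fold lower value. The groups did not overlap on either probe set, and control 1 was the highest array on both. Both Ift88-deleted arrays lay below both controls in 17.4% of all probe sets. Since Dner was selected on its low values there, neither this nor its rank among all probe sets is a further result. The suffix _x_at marks probes that may also bind other transcripts. Only 19 of the 45037 probe sets lay lower than 1423671_at by the difference between the groups, and 5 lower than 1456379_x_at.

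The 2 controls differed from each other by 1.62 on 1423671_at and by 2.20 on 1456379_x_at, while the Ift88-deleted arrays differed by -0.51 and 0.24 (replicate 1 minus replicate 2). Leaving out control 1 left Dner at -1.57 and -2.31, and leaving out control 2 gave -3.18 and -4.51. The size thus depended on which control was used; the sign could not change, since Dner was selected on low values in both Ift88-deleted arrays. The number steps of the deposited values place the lowest original log2 value of 1423671_at at 8 or more, and that of 1456379_x_at at 2 to 4. This class is coarse and can be too high. Of the probe sets placed at 8 or more 16.2% also fitted the next coarser step, so a lower value can fit a higher class.

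**Figure D1:**
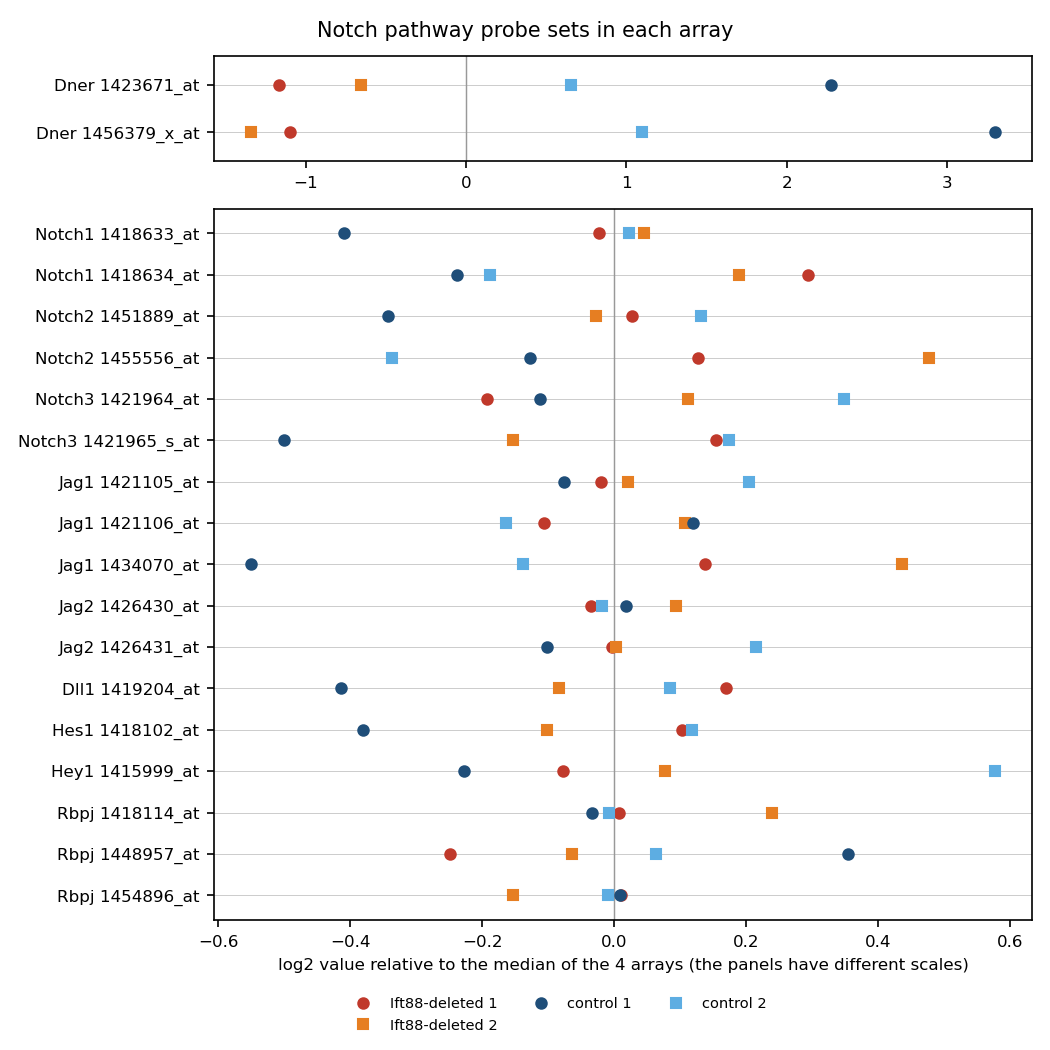
Each row is a probe set and each point an array, with the log2 value relative to the median of the 4 arrays on the horizontal axis; the upper panel has its own scale. Both Ift88-deleted arrays lie below both controls for Dner, which was selected on its low values there (-1.34 to -0.66, against 0.66 to 3.30). Control 1 is the lowest array for 11 of the other 17 probe sets.

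None of the 17 probe sets of the 9 other genes passed limma's test over all 45037 probe sets (0 of 17, where 0.0444% of all probe sets passed, 0.0222% higher and 0.0222% lower). Their adjusted p ran from 0.710 to 1. At an unadjusted p under 0.05 there were 3 of 17, one each of Notch1, Notch2 and Jag1, against 6.17% of all probe sets, and all 3 had higher values in the Ift88-deleted arrays. The genes were chosen with earlier results of these arrays known, so these counts support nothing further.

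Among the receptors, Notch1 and Notch2 each had a probe set with both Ift88-deleted arrays above both controls. Notch1 (chromosome 2, 26457902 to 26503822), a receptor used in many tissues, was at 0.29 and 0.19 in the Ift88-deleted arrays on 1418634_at, against -0.24 in control 1 and -0.19 in control 2. Arrays of a group lay close together there, and the log2 difference was 0.45, or 1.37-fold higher (SE 0.139, limma adjusted p = 0.710, 95% interval 0.11 to 0.80). The other Notch1 probe set, 1418633_at, was at -0.023 and 0.046 in the Ift88-deleted arrays, against -0.41 in control 1 and 0.023 in control 2. Its groups overlapped, and its difference of 0.21 came with control 1 alone standing low: without that array it was -0.01.

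Notch2 (chromosome 3, 98013538 to 98150367), a second receptor, was at 0.13 and 0.48 in the Ift88-deleted arrays on 1455556_at, against -0.13 in control 1 and -0.34 in control 2. The groups did not overlap, and the log2 difference was 0.53, or 1.45-fold higher (SE 0.182, limma adjusted p = 0.756, 95% interval 0.08 to 0.99). Its other probe set, 1451889_at, was at 0.027 and -0.027 in the Ift88-deleted arrays, against -0.34 in control 1 and 0.13 in control 2. Those groups overlapped, the difference was 0.11, and it was -0.13 without control 1.

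Notch3 (chromosome 17, 32120820 to 32166896), the receptor best known from smooth muscle around vessels, had probe sets of opposite sign. On 1421964_at it was at -0.19 and 0.11 in the Ift88-deleted arrays, against -0.11 in control 1 and 0.35 in control 2. On 1421965_s_at it was at 0.15 and -0.15 in the Ift88-deleted arrays, against -0.50 in control 1 and 0.17 in control 2. The differences were -0.16 and 0.16, and the groups overlapped on both. Averaged over the 2 probe sets, Notch3 differed by 0.0025 between the groups.

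Of the canonical ligands, Jag1 (chromosome 2, 137081451 to 137116520) had the largest difference, on 1 of its 3 probe sets. On 1434070_at it was at 0.14 and 0.44 in the Ift88-deleted arrays, against -0.55 in control 1 and -0.14 in control 2. The groups did not overlap, and the log2 difference was 0.63, or 1.55-fold higher (SE 0.204, limma adjusted p = 0.734, 95% interval 0.12 to 1.14). The other probe sets of Jag1, 1421105_at and 1421106_at, differed by -0.06 and 0.02 with overlapping groups, so the mean over the 3 was 0.20. The original value of 1421106_at was of the dimmest class, 2 to 4 on the log2 scale.

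Jag2 (chromosome 12, 112907803 to 112929812), the second Jagged ligand, differed by 0.029 on 1426430_at and by -0.056 on 1426431_at, with overlapping groups. The 95% interval of the first was -0.32 to 0.38 and that of the second -0.47 to 0.36. Dll1 (chromosome 17, 15367354 to 15376932), a Delta ligand, was at 0.17 and -0.08 in the Ift88-deleted arrays, against -0.41 in control 1 and 0.08 in control 2. Control 1 was again the low array, and the difference of 0.21 turned to -0.04 without it.

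The target genes Hes1 and Hey1, transcriptional repressors that Notch signals induce, had small differences of opposite sign. Hes1 (chromosome 16, 30065357 to 30067796) was at 0.10 and -0.10 in the Ift88-deleted arrays, against -0.38 in control 1 and 0.12 in control 2. Hey1 (chromosome 3, 8663359 to 8667038) was at -0.08 and 0.08 in the Ift88-deleted arrays, against -0.23 in control 1 and 0.58 in control 2. For both genes the 2 Ift88-deleted arrays lay between the 2 controls. The difference was 0.13 for Hes1 (limma adjusted p = 0.992, 95% interval -0.40 to 0.66) and -0.17 for Hey1 (limma adjusted p = 0.992, 95% interval -0.88 to 0.53). Without control 1 these were -0.12 and -0.58, and without control 2 they were 0.38 and 0.23.

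Rbpj (chromosome 5, 53555779 to 53657445) was measured by 3 probe sets that did not go one way. On 1448957_at it was at -0.25 and -0.06 in the Ift88-deleted arrays, against 0.35 in control 1 and 0.06 in control 2. The groups did not overlap, and the log2 difference was -0.36, or 1.29-fold lower (SE 0.170, limma adjusted p = 0.843, 95% interval -0.79 to 0.06). On 1418114_at both Ift88-deleted arrays, at 0.0073 and 0.24, lay above both controls, at -0.033 and -0.0073, by a gap near 0, and the difference was 0.14. On 1454896_at the difference was -0.07 with overlapping groups. The mean over the 3 was -0.10.

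**Figure D2:**
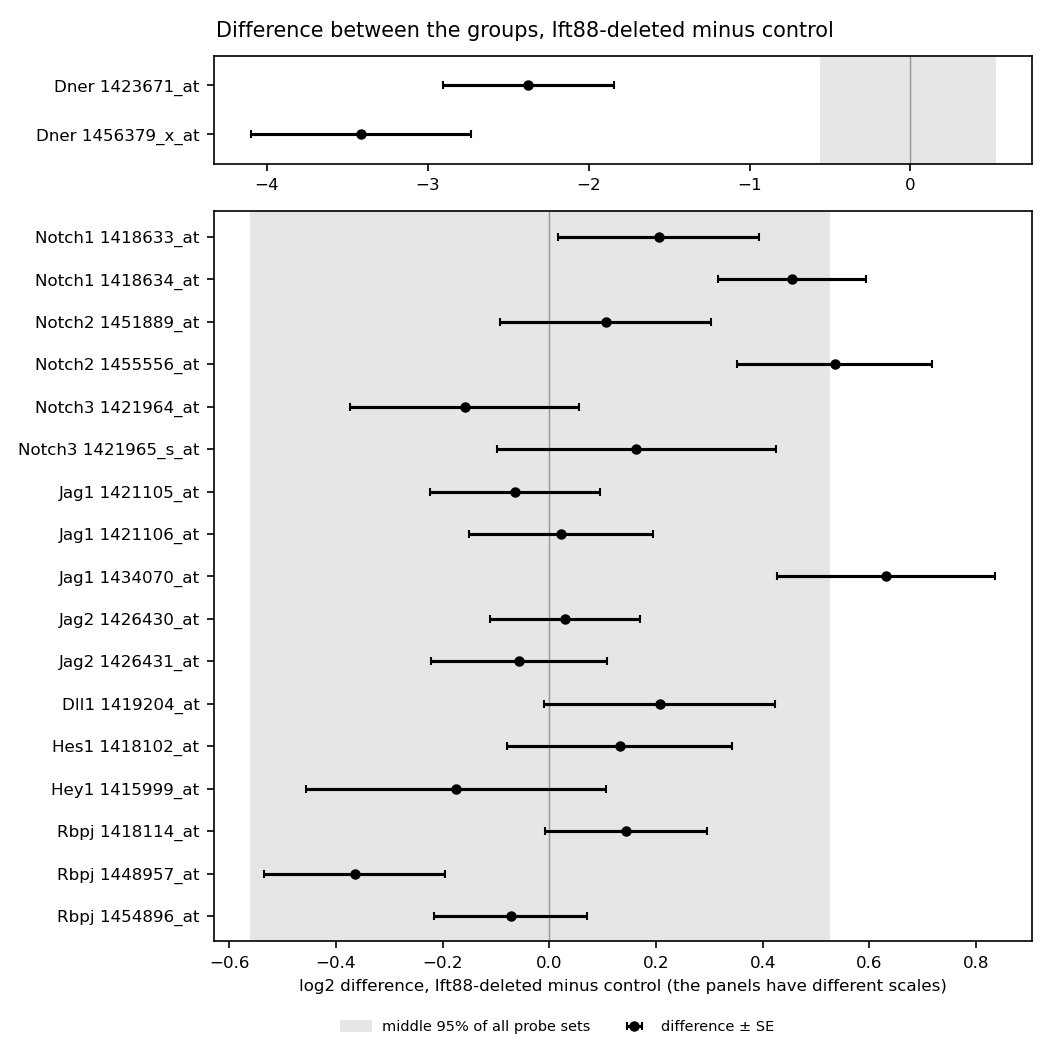
Points give the log2 difference, Ift88-deleted minus control, of each probe set and bars its SE from limma; the grey band spans the 2.5th to 97.5th percentile of all 45037 probe sets (-0.56 to 0.52). Of the probe sets other than Dner, 1455556_at of Notch2 (0.53) and 1434070_at of Jag1 (0.63) lie beyond the band.

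As a set, the 19 probe sets had a median difference of 0.029, against 0.0015 over all probe sets, and 11 were above 0 and 8 below. Both Dner probe sets, selected on their low values, count among those below. Without Dner the median was 0.11. Of the 17 then left, 11 were above 0 (64.7%, against 50.5% of all probe sets) and 6 below. Both Ift88-deleted arrays lay above both controls in 4 of the 17 probe sets other than Dner, where 16.2% of all probe sets did, and below both controls in 1 of 17, where 17.4% did (5 of 17 either way, against 33.6%). When an array is left out these counts can only stay or rise, since groups that are apart stay apart. The same holds for the shares of all probe sets. Without control 2 they were 12 of 17 above (41.3% of all probe sets) and 2 of 17 below (36.3%). Without control 1 they were 5 of 17 above (31.2%) and 8 of 17 below (38%). Without Ift88-deleted 1 they were 6 above (32.5%) and 2 below (31%), and without Ift88-deleted 2 they were 6 above (26.6%) and 3 below (30%).

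Control 1 was the lowest of the 4 arrays in 11 of the 17 probe sets (64.7%), against 34.7% of all probe sets, and the highest in 2 (11.8%), against 30.4%. Dner went the other way, with control 1 the highest array on both probe sets. The median of the 17 was 0.0073 and 0.046 in the Ift88-deleted arrays, against -0.13 in control 1 and 0.063 in control 2. The difference between the groups was smaller than that between the controls in 11 of 17 probe sets (64.7%), which is near the 65.8% of all probe sets. The median difference of all 19, Dner included, was -0.12 without control 1 and 0.16 without control 2.

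**Figure D3:**
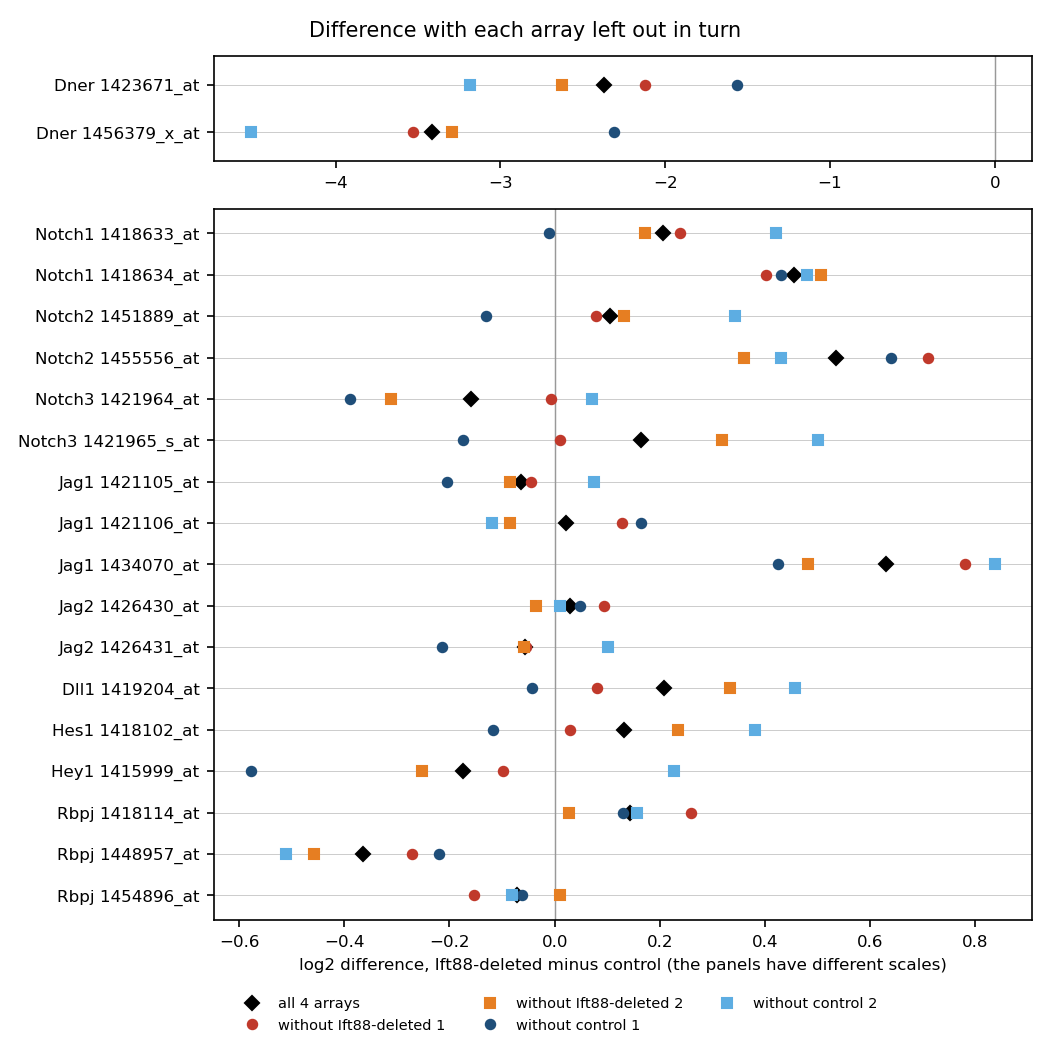
Each row is a probe set; the diamond is the log2 difference (Ift88-deleted minus control) over all 4 arrays and the other points the difference with 1 array left out. Dner, whose sign its selection fixes, spans -4.51 to -1.57, and 12 of the 19 probe sets take both signs.

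The other genes of the pathway were given by a list of 64, of which 60 had a probe set naming them alone, 122 probe sets in all. The others of the list were not analysed here. By limma over all probe sets 0 of 122 passed in either direction (lowest adjusted p = 0.456), where 0.0444% of all probe sets passed, and 9 had an unadjusted p under 0.05, where 6.17% of all did. Both Ift88-deleted arrays lay above both controls in 24 of 122 (19.7%) and below both in 19 (15.6%), near the 16.2% and 17.4% of all probe sets. The median difference was 0.032.

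The enzymes that cut the receptor and its ligands had both Ift88-deleted arrays above both controls in 7 of 18 probe sets (16.2% of all probe sets) and below both in 0 (17.4% of all), with a median of 0.15. These probe sets belong to 8 genes. Another role, ligand ubiquitination, had 4 of 11 probe sets above both controls (16.2% of all) and 1 below (17.4% of all), with a median of 0.12. There are 8 roles, and no test of any was made. Of the cutting enzymes Furin, which cleaves the receptor on its way to the surface, was at 0.14 and 0.38 in the Ift88-deleted arrays, against -0.24 and -0.14 in the controls on 1418518_at (difference 0.45, limma adjusted p = 0.762). Adam10, the protease that sheds the bound receptor, was at 0.09 and 0.18 in the Ift88-deleted arrays, against -0.42 and -0.09 in the controls on 1428103_at (difference 0.39). Its 3 other probe sets differed by 0.06 to 0.19. Mib1, the ubiquitin ligase by which a cell takes up its ligand, had probe sets of both signs: 0.57 on 1454740_at, 0.24 on 1433853_at and -0.21 on 1451818_at. Neurl1a, another ligase for ligands, differed by 0.19 on 1456854_at and by 0.06 to 0.26 on its 5 other probe sets.

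Fringe enzymes add sugars to the receptor and so tune which ligand it answers. Rfng was at -0.22 and -0.32 in the Ift88-deleted arrays, against 0.45 and 0.22 in the controls on 1460704_at (difference -0.60, limma adjusted p = 0.661), while its other probe set differed by 0.13. Lfng was at 0.26 on 1420643_at and -0.08 on 1449943_at. Among further ligands and modulators, Dlk2, a Delta-like protein without the DSL domain, differed by -0.55 on 1450005_x_at and -0.19 on 1420807_a_at, with groups apart on both. Egfl7, a secreted EGF-repeat protein of endothelium, differed by -0.36 on 1451428_x_at and by 0.03 to 0.13 on its 3 other probe sets.

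Of genes that act on receptor turnover, Fbxw7, which marks the intracellular part of Notch for breakdown, was at 0.11 and 0.70 in the Ift88-deleted arrays, against -0.11 and -0.40 in the controls on 1451558_at (difference 0.66, limma adjusted p = 0.773). Its other probe set, 1424986_s_at, differed by -0.03 with overlapping groups. Nedd4, a ubiquitin ligase, differed by -0.41 on 1451109_a_at, and by -0.08 and -0.16 on the others. In the nucleus, the deacetylase Hdac1 differed by -0.43 on 1448246_at, and Maml1, the coactivator that binds Notch and Rbpj, by -0.39 on 1426769_s_at but by 0.01 and 0.04 on its other probe sets.

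Among the genes that the list places under targets, the largest differences were those of Ccnd1 and Hes6. Ccnd1, a G1 cyclin that several pathways besides Notch induce, was at 0.36 and 0.84 in the Ift88-deleted arrays, against -0.36 and -0.43 in the controls on 1448698_at (difference 0.99, SE 0.200, limma adjusted p = 0.517). Its other probe sets differed by 0.88 (limma adjusted p = 0.456) and 0.28. Hes6, a Hes protein that opposes Hes1, was at -0.16 and -0.32 in the Ift88-deleted arrays, against 0.65 and 0.16 in the controls on 1436050_x_at (difference -0.64), and differed by 0.06 on its other probe set. Of the 17 probe sets listed under targets 3 lay above both controls and 4 below, near the 16.2% and 17.4% of all probe sets.

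**Figure D4:**
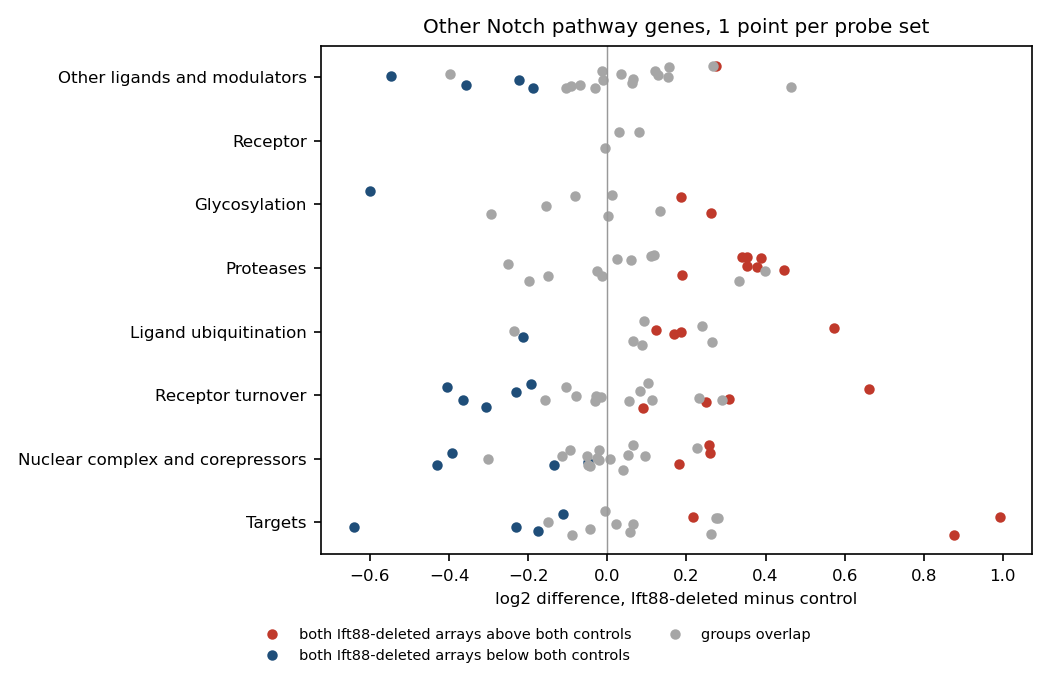
Points are the 122 probe sets of 60 other Notch pathway genes, by role, with the log2 difference (Ift88-deleted minus control) on the horizontal axis; vertical scatter within a role has no meaning. Over all roles both Ift88-deleted arrays lie above both controls in 24 of 122 probe sets (16.2% of all probe sets) and below both in 19 (17.4% of all), and the 2 points furthest to the right are probe sets of Ccnd1 (0.88 and 0.99).

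Markers gave the make-up of the dissected tissue as far as values without levels allow. Of the 18 probe sets of 10 chondrocyte genes 17 were of the class of 8 or more, and the median of these genes was 0.14 and -0.02 in the Ift88-deleted arrays, against -0.01 and -0.01 in the controls. Endothelial markers, for cells in which Notch1, Dll1 and Hey1 are also active, had a median of 0.01 and -0.07 in the Ift88-deleted arrays, against -0.23 in control 1 and 0.18 in control 2, over 7 of 7 genes. In control 1, the array in which most Notch members were lowest, Kdr was at -0.72, Tek at -0.67, Esam at -0.54, Pecam1 at -0.23 and Emcn at -0.13. Cdh5 was at -0.03 there and lowest in Ift88-deleted 2 (-0.19), while Tie1 was at 0.19, its highest array. Control 1 was the lowest array for 34.7% of all probe sets. Other lists also had genes lowest there, such as Pdgfrb (-0.86), Csf1r (-0.60) and Dcn (-1.25), and genes that were not, such as Acta2 (0.05). None of the 7 endothelial genes had groups apart, where 33.6% of all probe sets did. Of their 8 probe sets 1 was of the class of 8 or more and 3 were of the dimmest class. Mural markers, for cells that express Notch3, had a median of 0.0042 and -0.14 in the Ift88-deleted arrays, against -0.05 and 0.13 in the controls, over 6 of 6 genes. The part of these cells in the Notch values was not tested.

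Of the neuronal and Schwann cell markers 6 of 8 were measured. Their medians were 0.02 and -0.03 in the Ift88-deleted arrays, against 0.06 and -0.01 in the controls, and their differences ran from -0.16 to 0.29. Of their 15 probe sets 7 were of the dimmest class and 1 of the class of 8 or more. Prg4, a lubricin of the joint surface, was at -0.19 and -0.01 in the Ift88-deleted arrays, against 0.01 in control 1 and 7.52 in control 2. Postn of the same marker list was at 3.47 and -0.65 in the Ift88-deleted arrays, against 0.65 in control 1 and -1.14 in control 2. Dcn, also of that list, was at 0.26 and 0.22, against -1.25 and -0.17. Of the 6 genes of that list 4 had a difference above 0 and 2 below. The hypertrophic markers, 4 of 5 measured, had a median of 0.52 and -0.16 in the Ift88-deleted arrays, against -0.27 and 0.11 in the controls. Perichondrial and joint surface genes had 0.36 and -0.32 in the Ift88-deleted arrays, against -0.25 and 0.19 in the controls. Skeletal muscle markers had -0.0095 and -0.03 in the Ift88-deleted arrays, against 0.09 and 0.15 in the controls, and 5 of 6 of these genes had a difference below 0. Of them Mylpf, a fast muscle myosin light chain, had the largest difference (-1.05). It was at -0.38 and -0.56 in the Ift88-deleted arrays, against 0.77 in control 1 and 0.38 in control 2. Of the 6 muscle genes 2, Mylpf among them, had both Ift88-deleted arrays below both controls (17.4% of all probe sets). Myog had both above (16.2% of all), at 0.12 and 0.02, against -0.02 and -0.02. None of the 7 muscle probe sets was of the class of 8 or more. The 2 osteoblast genes measured had 0.24 and -0.88 in the Ift88-deleted arrays, against -0.23 and 0.71 in the controls, and the 5 blood and macrophage genes 0.01 and -0.07, against -0.14 and 0.45. The part of these in the Dner values was not tested.

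The genes whose 4 values were closest to those of Dner were sought by Euclidean distance to 1456379_x_at over the 4 arrays, as a description with no test. This distance keeps the size of the values, so it favours genes that are also much lower in the Ift88-deleted arrays. Since Dner was selected on such values, nearness to it is no further result. The other Dner probe set was at a distance of 1.31. Next came Ptch1 (1439663_at, 1.47), Tnni2 (1416889_at, 1.60), Dmrta1 (1441579_at, 1.61), Gli1 (1449058_at, 1.64) and 2610528A11Rik (1435639_at, 1.69). Ptch1, the Hedgehog receptor, was at -1.42 and -1.16 in the Ift88-deleted arrays, against 1.87 in control 1 and 1.16 in control 2 on that probe set. Its other probe sets differed by -2.15 on 1428853_at and by 0.08 on 1450824_at, where the groups overlapped. Gli1, a transcription factor of the same pathway, was at -1.34 and -1.11 in the Ift88-deleted arrays, against 1.69 in control 1 and 1.11 in control 2. Dmrta1 was at -0.38 and -0.51 in the Ift88-deleted arrays, against 2.37 in control 1 and 0.38 in control 2. The controls of Dner and Dmrta1 were thus far apart, while those of Ptch1 and Gli1 lay closer together. Tnni2, a troponin of fast skeletal muscle, was at -1.38 and -1.77 in the Ift88-deleted arrays, against 1.81 in control 1 and 1.38 in control 2.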

How the data were processed

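The labels describe microdissected proliferative-zone chondrocytes of 2 Ift88-deleted and 2 control samples, 1 Affymetrix array each. The authors deposited log2 values made with RMA, per the submitters' processing notes, with no version given; scanner files were not used here. Each of the 45101 probe sets has a median of 0 over the 4 arrays (largest departure 5e-07), so levels are lost and differences kept. The log2 base was inferred from the number steps of the values. These also give the class of the lowest original value, which can be too high (25.2% of probe sets at 8 or more, 56.9% at 4 to 8, 17.8% at 2 to 4).

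After 64 control probe sets were left out, each of 45037 probe sets was fitted in limma 3.58.1 under R 4.3.3, group only, eBayes without trend, two-sided, Ift88-deleted minus control, with Benjamini-Hochberg adjustment over all of them. Genes were named from the platform annotation (34945 probe sets name 1 gene, 932 several, 9160 none), and positions and promoters from RefSeq, GRCm38.p6. Moderation added 3.46 prior degrees of freedom to 2 residual ones. With 4 arrays precision is low, and an exact permutation test of 2 against 2 cannot give a p under 0.333. The fit was tested on simulated data. Probe set positions within genes were not analysed here.

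The members, the list of 64 other pathway genes and the marker lists were chosen with earlier results of these data known. Named genes were all members, up to 2 genes per role of that list (the largest difference of a probe set with groups apart), and the 5 genes nearest to Dner. Alternatives were renewed quantile normalization, array medians subtracted, gene means, the dimmest class left out, no moderation, robust moderation, a test against a log2 difference of 0.5, calls at 0.1, a block for replicate number, and each array left out. The counts of separated groups with an array left out were added after seeing the data.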

Additional observations from a re-analysis of the deposited data

How the results depend on the processing

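No probe set of the members other than Dner, and none of the other pathway list, passed under any alternative run, and no member changed sign under another scaling, filter or spread. The count over all probe sets, 20 with all arrays, was 2 genes with gene means, 2 without moderation, 11 against a log2 difference of 0.5 and 9 to 12 with 1 array left out; fewer features or arrays enter the first and last of these, and the cause was otherwise not tested. With the replicate number as a block it was 5. The numbers 1 and 2 of both groups are not said to pair the samples, and the deviations of both number-1 arrays from their group means correlated at 0.102 over 45037 probe sets. The block left the differences unchanged, since the design is balanced. The median difference of the 19 probe sets, Dner included, ran from -0.12 to 0.16 with 1 array left out. The following 12 differences took both signs in the same way: Notch1 1418633_at -0.011 to 0.42, Notch2 1451889_at -0.13 to 0.34, Notch3 1421964_at -0.39 to 0.072 and 1421965_s_at -0.17 to 0.50, Jag1 1421105_at -0.20 to 0.075 and 1421106_at -0.12 to 0.16, Jag2 1426430_at -0.035 to 0.093 and 1426431_at -0.21 to 0.10, Dll1 -0.042 to 0.46, Hes1 -0.12 to 0.38, Hey1 -0.58 to 0.23 and Rbpj 1454896_at -0.15 to 0.0097. Dner ran from -3.18 to -1.57 on 1423671_at and from -4.51 to -2.31 on 1456379_x_at. Fits with 1 array in a group assume that it varies like the other group.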

Other observations

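Ccn3, a secreted matrix protein reported to bind Notch1, stood apart in 1 array rather than between groups. It was chosen here after its values were seen. On 1426852_x_at it was at 0.92 and -0.14 in the Ift88-deleted arrays, against -0.29 and 0.14 in the controls, and on 1426851_a_at at 0.81 and -0.28, against -0.10 and 0.10. The same Ift88-deleted array was the highest for Col10a1 (0.72, against -0.46 in the other Ift88-deleted array) and for Ihh (0.68, against -0.35), which mark later chondrocytes. Mmp13 of the same marker list was at -0.30 in that array and 0.30 in the other Ift88-deleted array, against -0.75 and 2.45 in the controls, and Pth1r was at 0.35 and 0.03, against -0.38 and -0.03.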
